A study of Drosophila melanogaster with 11 samples.

Results

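The genes described here are 5 of the 16727 genes in the deposited count table, chosen by name: the carboxylesterases Est-6 (Esterase 6) and Jhedup (Juvenile hormone esterase duplication), and a10, a5 and Os-C, which encode small proteins that antennal support cells secrete. All 5 were present in the table and all 5 passed the filter on low counts, which kept 11867 genes. RNA came from the third antennal segment of Drosophila melanogaster, which carries the olfactory sensilla of the fly. The groups were mir-284 KO at 25 d after eclosion (2 libraries), wild type at 25 d (3), mir-284 KO at 3 d (3) and wild type at 3 d (3), written KO 25 d, WT 25 d, KO 3 d and WT 3 d below. All flies had the w1118 background, and the KO, a knockout of the microRNA gene mir-284, had been outcrossed to it 7 times. The design text calls the replicates biological and asks which transcripts the microRNA regulates. Sex, the number of animals pooled and the time of day are not given in the sources used here.

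Olfactory neurons of the fly send their dendrites into hollow cuticular hairs filled with lymph. The support cells at the base of each hair build the cuticle and secrete the proteins of that lymph, among them odorant binding proteins, chemosensory proteins and odorant-degrading esterases. Esterases of the lymph cleave ester odorants such as those of fruit, and Est-6 is also known from the male ejaculatory duct and acts in the antenna on food esters and on the response to a male pheromone ester. Jhedup arose as a tandem copy of Jhe, the enzyme that degrades juvenile hormone, and cleaves fruit esters in vitro. The a10 protein, also called OS-D, is a chemosensory protein. The a5 protein belongs to the phosphatidylethanolamine-binding protein family. Os-C was isolated as a transcript specific to olfactory tissue.

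In coordinates of dm6, Est-6 (FBgn0000592) lay on 3L from 12188818 to 12190705 on the plus strand with 2 exons, and Jhedup (FBgn0034076) on 2R from 16117109 to 16119149 on the plus strand with 6 exons. The gene a10 (FBgn0011293) lay on 3L from 17023123 to 17023741 on the minus strand, a5 (FBgn0011294) on 2L from 1329161 to 1329993 on the plus strand and Os-C (FBgn0010401) on 3R from 7978959 to 7979614 on the plus strand, each with 2 exons. None of Est-6, Jhedup, a10 and a5 shared exonic bases with another gene of the table. Os-C shared 27 bases, 4.47% of its exons, with Sfp84E on the opposite strand, and because the authors ignored strand when counting, reads from those bases cannot be told apart.

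Total counts per library ran from 24619699 to 55485825, and the fewest reads of any of the 5 genes in a library was 27444, for Est-6, where counting error alone is 0.604%. The targeted gene mir-284 had 0 counts in each of the 11 libraries of either genotype, a limit of at most 0.110 CPM (counts-per-million of the scaled library total) for reads assigned to it. It shared exonic bases with 1 other gene on its own strand, and the part of that overlap in the 0 counts was not tested. Poly(A) libraries are also not made to hold so short a precursor, so these counts checked neither genotype label. The 7 neuron markers, with the odorant co-receptor Orco among them, summed to 2045 to 5534 CPM, and all 7 were detected. Markers from outside the third segment were also present. The 5 photoreceptor markers summed to 385 to 767 CPM in KO 25 d, 571 to 3998 CPM in WT 25 d, 939 to 4297 CPM in KO 3 d and 1259 to 4696 CPM in WT 3 d. The 3 markers of Johnston's organ, in the second antennal segment, summed to between 83.9 and 179 CPM over all libraries. The part of these tissues in the levels was not tested. In all, 3 libraries stood apart. Values of the 5 genes that changed sign without them, and some that moved strongly, are also given without them. KO 25 d replicate 1 scored 163 on the first principal component, against -47.6 to 13.3 in the other libraries, and its scaling factor was 0.702, the lowest. WT 3 d replicate 3 and KO 3 d replicate 3 scored 80.1 and 69.4 on the second component, and no other library exceeded 10.7.

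The 5 transcripts were among the most abundant of the tissue. Together they took 1.14% to 3.61% of the counts of a library, the lowest share in WT 3 d replicate 3 and the highest in KO 25 d replicate 1. Ranked by RPKM, the CPM per kilobase of exon, among the 11867 genes tested, a10 stood between 2 and 7 in every library, Os-C between 4 and 9, Jhedup between 10 and 50, a5 between 11 and 82, and Est-6 between 33 and 175. The median level over the 11 libraries was 11208 RPKM for a10, 8422 RPKM for Os-C, 3886 RPKM for Jhedup, 2909 RPKM for a5 and 763 RPKM for Est-6. In WT 25 d this order (a10, Os-C, Jhedup, a5, Est-6) held in 3 of 3 libraries with no overlap between neighbouring genes. In WT 3 d the ranges of all neighbours overlapped, with WT 3 d replicate 3 the lowest library for 4 of the 5 genes. In KO 3 d the means put a5 above Jhedup, whose ranges overlapped, and in KO 25 d the means put Os-C above a10 and a5 above Jhedup, with overlapping ranges for both pairs and each order in 1 of 2 libraries.

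**Figure D1:**
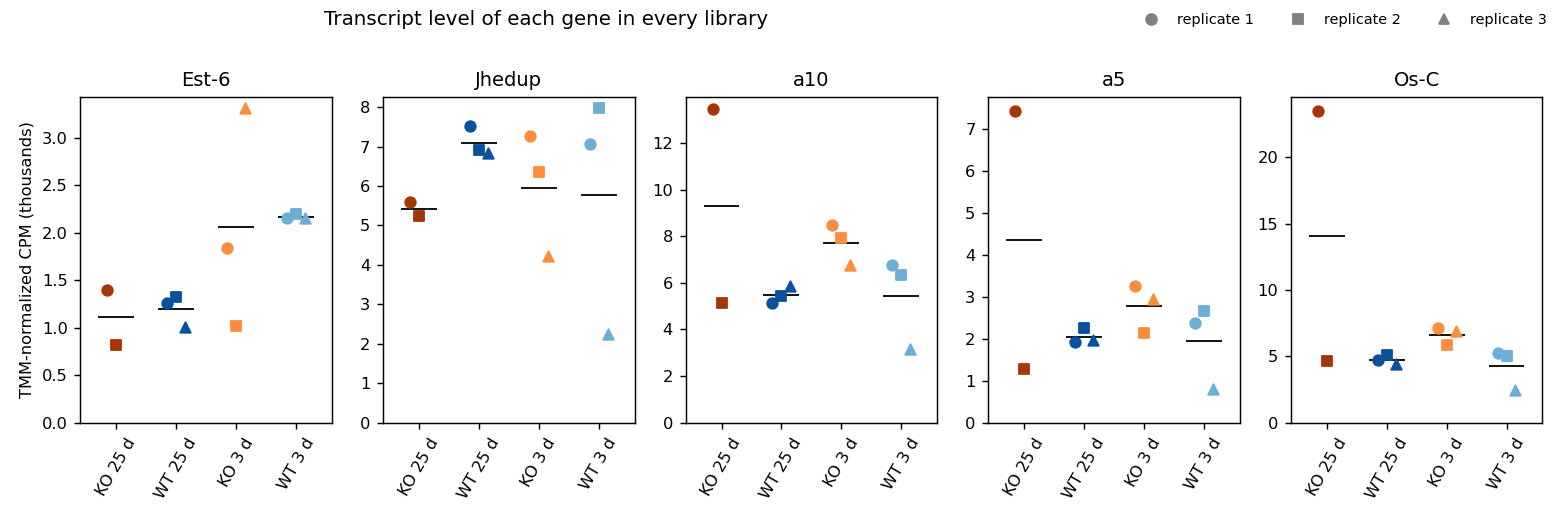
Transcript level of each of the 5 genes in every library. The vertical axis gives TMM-normalized CPM on a linear axis starting at 0, each point is 1 library with its shape giving the replicate number, and horizontal lines are group means (2 libraries in KO 25 d, 3 in each other group); Os-C reached 23502 CPM in KO 25 d replicate 1 and 4634 CPM in KO 25 d replicate 2.

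No change of the 5 genes with genotype or age passed the test. Of the 5, 0 were called in KO against WT at 25 d, where 1.74% of all genes were called, and 0 in KO against WT at 3 d, where 1.39% were. The counts were also 0 for 25 d against 3 d in KO (0.0421% of all genes) and in WT (0.152%), and 0 for the difference between the age changes of the genotypes (0.0253%). A call here means an adjusted p under 0.05 from edgeR's quasi-likelihood test, with Benjamini-Hochberg adjustment over all 11867 genes, and every adjusted p below comes from it unless another tool is named. At an unadjusted p under 0.05, 1 of the 5 passed in KO against WT at 25 d (Os-C) and 1 in WT age (Est-6), against 20.6% and 8.07% of all genes, and none passed in KO against WT at 3 d (1304 of 11867 genes), age in KO (11.8%) or the difference (6.12%). Averaged over both ages, a comparison added after the data had been seen, 0 of the 5 were called in KO against WT, where 5.32% of all genes were. The fitted Est-6 level at 25 d was 0.539 times that at 3 d in KO and 0.551 times in WT, and Os-C, a5 and a10 were highest of all 11 libraries in KO 25 d replicate 1. Markers of other cell types were also called in KO against WT. The roX genes, RNAs of male dosage compensation, summed to 1278 to 2744 CPM in KO 25 d, 1992 to 3215 CPM in WT 25 d, 755 to 1244 CPM in KO 3 d and 2468 to 3817 CPM in WT 3 d, and 1 of the 2 was lower in KO at 3 d (roX1, adjusted p = 0.0476) and 0 at 25 d. The 3 hemocyte markers summed to 158 to 170 CPM in KO 25 d, 98.0 to 206 CPM in WT 25 d, 96.6 to 165 CPM in KO 3 d and 106 to 187 CPM in WT 3 d, and 1 of the 3 was higher in KO at both ages (NimC1, a hemocyte receptor gene). Of the 5 muscle markers, 1 was lower in KO at both ages, the flight muscle actin gene Act88F (adjusted p = 0.0350 at 25 d, 0.306 without KO 25 d replicate 1, and 0.0096 at 3 d). The 5 maxillary palp markers, of which 1 was at 0 in all libraries, summed to 5.55 to 8.06 CPM in KO 25 d, 1.25 to 2.10 CPM in WT 25 d, 5.87 to 6.55 CPM in KO 3 d and 1.93 to 3.87 CPM in WT 3 d, and 0 of the 2 tested were called at either age. The part of these tissues in the KO against WT values was not tested.

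Est-6 was at 1401 and 816 CPM in the KO 25 d libraries, at 1255, 1319 and 1009 CPM in WT 25 d, at 1839, 1021 and 3307 CPM in KO 3 d and at 2151, 2196 and 2156 CPM in WT 3 d. The 3 WT 25 d libraries all lay below the 3 WT 3 d libraries, a separation that 26.0% of all genes showed in one direction or the other, while KO 25 d and KO 3 d overlapped through KO 3 d replicate 2. The mean was 1194 ± 164 CPM in WT 25 d and 2168 ± 24.7 CPM in WT 3 d (SD, n = 3 each). The log2 fold change was -0.86 in WT (SE 0.37, 95% interval -1.69 to -0.03), an unadjusted p of 0.0426 and an adjusted p of 0.581 by edgeR. In KO it was -0.89 (SE 0.42, interval -1.83 to 0.05, adjusted p = 0.441), and the difference between these age changes was -0.03 (interval -1.26 to 1.20, adjusted p = 0.994). The KO value was -0.37 without KO 3 d replicate 3. It was -1.32 without KO 25 d replicate 1, which leaves 1 library in KO 25 d. Fitting the 2 WT groups by themselves called Est-6 (adjusted p = 0.0473), as did limma voom with library quality weights (adjusted p = 0.0173); over all alternatives the WT value stayed between -0.94 and -0.75.

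The age change of Est-6 averaged over both genotypes, a comparison added after the data had been seen, was -0.88 on the log2 scale (SE 0.28, interval -1.50 to -0.25). Its edgeR adjusted p was 0.203, in a comparison with 0.430% of all genes called; DESeq2 gave 0.0305. Of the 5 muscle markers, all detected, 0 were called with age in either genotype, and their sum was 176 to 297 CPM in KO 25 d, 250 to 352 CPM in WT 25 d, 315 to 945 CPM in KO 3 d and 748 to 1528 CPM in WT 3 d. Their part in the Est-6 value was not tested. Est-6 is also made in the male ejaculatory duct. The 5 measured markers of the male reproductive tract in general (SP, Dup99B, Acp36DE, Acp26Aa and EbpII) summed to at most 15.4 CPM in any library. That list was not chosen for the duct, and the part of the duct in the Est-6 value was not tested. The 4 fat body and female markers summed to 1134 to 1528 CPM in KO 25 d, 515 to 2146 CPM in WT 25 d, 2266 to 9508 CPM in KO 3 d and 533 to 7034 CPM in WT 3 d. In bulk tissue, fewer cells of a type and less RNA per cell cannot be told apart.

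By genotype, Est-6 differed by -0.11 at 25 d (SE 0.41, interval -1.03 to 0.81, adjusted p = 0.893) and by -0.08 at 3 d (SE 0.37, interval -0.90 to 0.74, adjusted p = 0.979), KO over WT on the log2 scale. As folds, these intervals run from 0.491 to 1.76 times at 25 d and from 0.537 to 1.67 times at 3 d. The spread within KO 3 d was wide, the highest library being 3.24 times the lowest, whereas in WT 3 d it was 1.02 times. KO 3 d replicate 3 held the highest Est-6 of all libraries, 2.36 times the median, although Jhedup was at 0.617 times its own median there.

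Jhedup was at 5589 and 5247 CPM in KO 25 d, at 7511, 6904 and 6832 CPM in WT 25 d, at 7259, 6360 and 4215 CPM in KO 3 d and at 7069, 7978 and 2241 CPM in WT 3 d. Both KO 25 d libraries lay below the 3 WT 25 d libraries, a separation in this direction that 18.4% of all genes showed. The mean was 5418 ± 242 CPM in KO 25 d (SD, n = 2) and 7082 ± 373 CPM in WT 25 d (SD, n = 3). The log2 fold change was -0.39 (SE 0.46, interval -1.40 to 0.63, adjusted p = 0.630), and it lay between -0.44 and -0.34 when any 1 library was left out. At 3 d it was 0.04 (SE 0.41, interval -0.85 to 0.94, adjusted p = 0.993), and without WT 3 d replicate 3, the lowest of all libraries at 0.328 times the median, it was -0.34. With age Jhedup differed by -0.13 in KO (interval -1.14 to 0.87) and by 0.30 in WT (interval -0.60 to 1.20), with adjusted p of 0.919 and 0.959 by edgeR.

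The esterases did not keep a fixed ratio. The Est-6 level per length was 0.240 and 0.149 times that of Jhedup in KO 25 d, 0.160, 0.183 and 0.141 times in WT 25 d, 0.242, 0.154 and 0.751 times in KO 3 d, and 0.291, 0.263 and 0.921 times in WT 3 d. The ratio was highest in the pair of 3 d libraries that stood apart on the second component. Every WT 3 d ratio lay above every WT 25 d ratio. Est-6 by itself separated these groups, as 26.0% of all genes did in one direction or the other, so the ratio is no further result. The share of other gene ratios that separate was not computed.

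Each esterase gene lies in tandem with a related gene, and neither neighbour was abundant. Est-P, which starts 27 bases downstream of Est-6, averaged 6.12 RPKM, between 0.0041 and 0.0144 times the RPKM of Est-6 in the same library, and 398 of its exonic bases also lay in thoc6 on the opposite strand. Jhe, 643 bases downstream of Jhedup, averaged 7.77 RPKM, at most 0.0098 times Jhedup. Jhe was at 20.5 and 16.5 CPM in KO 25 d, at 8.91, 7.68 and 5.04 CPM in WT 25 d, at 22.3, 20.0 and 35.6 CPM in KO 3 d and at 9.16, 7.63 and 26.3 CPM in WT 3 d. At 25 d the KO libraries lay above the WT libraries, as did those of 14.6% of all genes, and at 3 d they overlapped through WT 3 d replicate 3. The log2 fold change of Jhe was 1.36 at 25 d (SE 0.49, adjusted p = 0.174) and 0.85 at 3 d (SE 0.44, adjusted p = 0.545). Without the 3 libraries that stand apart, which leaves 1 KO library at 25 d and assumes that it varies like the other groups, the values were 1.19 (adjusted p = 0.0184) at 25 d and 1.32 (adjusted p = 0.0054) at 3 d; without KO 25 d replicate 1 alone the 25 d value was also 1.19 (adjusted p = 0.668), and limma voom with quality weights called it at 3 d.

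Turning to the secreted proteins, a10 was at 13476 and 5147 CPM in KO 25 d, at 5141, 5456 and 5880 CPM in WT 25 d, at 8465, 7922 and 6750 CPM in KO 3 d and at 6781, 6355 and 3170 CPM in WT 3 d. KO 25 d replicate 2 lay inside the WT 25 d range and KO 25 d replicate 1 above every other library. At 3 d the KO libraries reached higher, but the lowest of them stood just below the highest WT library. The log2 fold change was 0.76 at 25 d (SE 0.41, interval -0.16 to 1.68, adjusted p = 0.308) and 0.50 at 3 d (SE 0.38, interval -0.33 to 1.34, adjusted p = 0.728). The 3 d value was 0.23 without WT 3 d replicate 3. Without KO 25 d replicate 1 the 25 d value was -0.10, and without KO 25 d replicate 2 it was 1.29 (adjusted p = 0.0196). Either fit leaves 1 library in KO 25 d, which is assumed to vary like the libraries of the other groups.

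For a5 the levels were 7444 and 1282 CPM in KO 25 d, 1931, 2257 and 1973 CPM in WT 25 d, 3251, 2131 and 2950 CPM in KO 3 d and 2376, 2667 and 794 CPM in WT 3 d. The KO 25 d libraries lay on either side of the WT 25 d range, 5.81-fold apart, and at 3 d the groups overlapped. The log2 fold change was 1.09 at 25 d (SE 0.63, interval -0.31 to 2.48, adjusted p = 0.335) and 0.51 at 3 d (SE 0.57, interval -0.76 to 1.78, adjusted p = 0.839). The 3 d value was 0.14 without WT 3 d replicate 3. With 1 library left in KO 25 d, under the same assumption, the 25 d value was -0.69 without KO 25 d replicate 1 and 1.86 without KO 25 d replicate 2 (adjusted p = 0.0159).

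Os-C was at 23502 and 4634 CPM in KO 25 d, at 4690, 5087 and 4445 CPM in WT 25 d, at 7094, 5851 and 6875 CPM in KO 3 d and at 5213, 5050 and 2435 CPM in WT 3 d. At 3 d all KO libraries lay above all WT libraries, the only one of the 5 genes without overlap there, and 13.9% of all genes were separated in that direction. The mean was 6607 ± 664 CPM in KO 3 d and 4233 ± 1559 CPM in WT 3 d (SD, n = 3 each), a log2 fold change of 0.64 (SE 0.49, interval -0.45 to 1.74, adjusted p = 0.745). This 3 d value was 0.36 without WT 3 d replicate 3. At 25 d one KO library lay within the WT range and the other far above it, and the log2 fold change was 1.57 (SE 0.54, interval 0.37 to 2.77, unadjusted p = 0.0155, adjusted p = 0.163 by edgeR). DESeq2 called it (adjusted p = 0.0296). With 1 library left in KO 25 d, again assumed to vary like the other groups, the value was -0.04 without KO 25 d replicate 1 (adjusted p = 1) and 2.31 without KO 25 d replicate 2 (adjusted p = 0.0011).

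With age the secreted proteins differed in KO by 0.27 for a10, 0.65 for a5 and 1.09 for Os-C on the log2 scale, with edgeR adjusted p of 0.801, 0.677 and 0.448. Without KO 25 d replicate 1 these were -0.57, -1.10 and -0.50. In WT they differed by 0.01 for a10 (interval -0.82 to 0.85), 0.08 for a5 (interval -1.19 to 1.34) and 0.16 for Os-C (interval -0.93 to 1.25), with adjusted p of 0.991 to 0.999. Without WT 3 d replicate 3 the WT values were -0.26, -0.30 and -0.11. The KO age change minus the WT age change lay between -0.43 (Jhedup) and 0.93 (Os-C) over the 5 genes, with adjusted p of 0.815 or more.

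**Figure D2:**
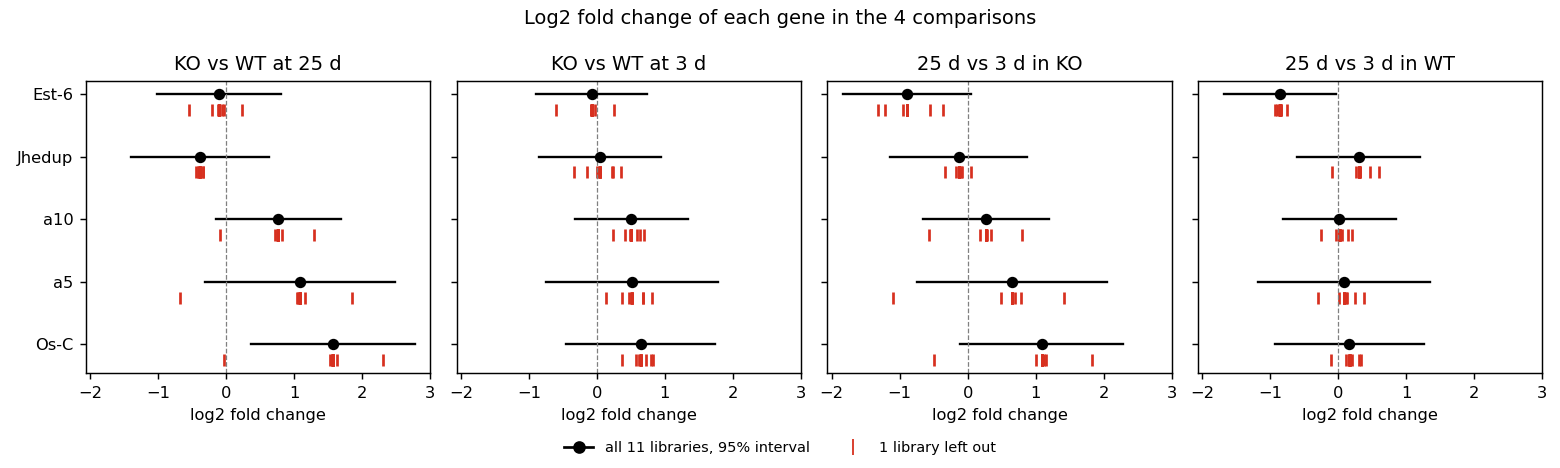
Log2 fold change of each of the 5 genes in the 4 comparisons. Black points and lines give the edgeR estimate over all 11 libraries with its 95% interval, and red marks give the estimate when 1 library is left out; the KO against WT value of Os-C at 25 d was 1.57, and leaving out single libraries moved it between -0.04 and 2.31.

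The 3 secreted proteins varied together across libraries. Over the 11 libraries the correlation of log2 CPM was 0.94 for each pair of a10, a5 and Os-C, and 0.89 to 0.93 over the 10 libraries without KO 25 d replicate 1. Jhedup correlated with these 3 at 0.30 to 0.49 over 11 libraries and at 0.64 to 0.72 over the 10. Those 10 still hold WT 3 d replicate 3, where Jhedup, a10, a5 and Os-C were all low. Est-6 correlated with the other 4 genes at -0.30 to 0.15 over 11 libraries and at -0.30 to 0.29 over the 10. By ranks (Spearman's rho, 11 libraries) the values were 0.85 to 0.89 among a10, a5 and Os-C and 0.10 to 0.25 for Jhedup with them. For Est-6 with the other 4 genes they were 0.01 to 0.46. These are descriptions over libraries of 4 groups that share their scaling, with no test. The genes most like a10, a5 and Os-C, named below, reached r = 0.96 to 0.99 with them over the 11 libraries. Varying together at 0.94 was thus not particular to these 3.

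In KO 25 d replicate 1, relative to each gene's median over the 11 libraries, Os-C was at 4.62 times, a5 at 3.30 times, a10 at 2.12 times, Jhedup at 0.818 times and Est-6 at 1.00 times. Of the odorant binding proteins, the same library held 7.21 times the median of Obp19d, 5.47 times Obp83b, 3.90 times Obp28a and 2.31 times lush. It held 1.10 times the median of antdh, an antennal dehydrogenase of the support cells, and 1.54 times that of Orco. These picked genes do not stand for their lists. With this library in, 9 of 12 odorant binding proteins and 1 of 8 other support-cell genes were above 0 in KO over WT at 25 d. Amt, a support-cell gene, was at 188 to 357 CPM in KO 25 d and 542 to 637 CPM in WT 25 d. In WT 3 d replicate 3, Jhedup was at 0.328 times its median, a5 at 0.352, Os-C at 0.479 and a10 at 0.499, with Orco at 0.289 times, while Est-6 was at 1.54 times as in the other WT 3 d libraries. Even within the co-varying genes the proportions shifted: the RPKM ratio of Os-C to a10 was 1.64 in KO 25 d replicate 1 and 0.693 to 0.956 in the other 10 libraries. The part of these libraries' general shift in the levels of single genes was not tested.

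**Figure D3:**
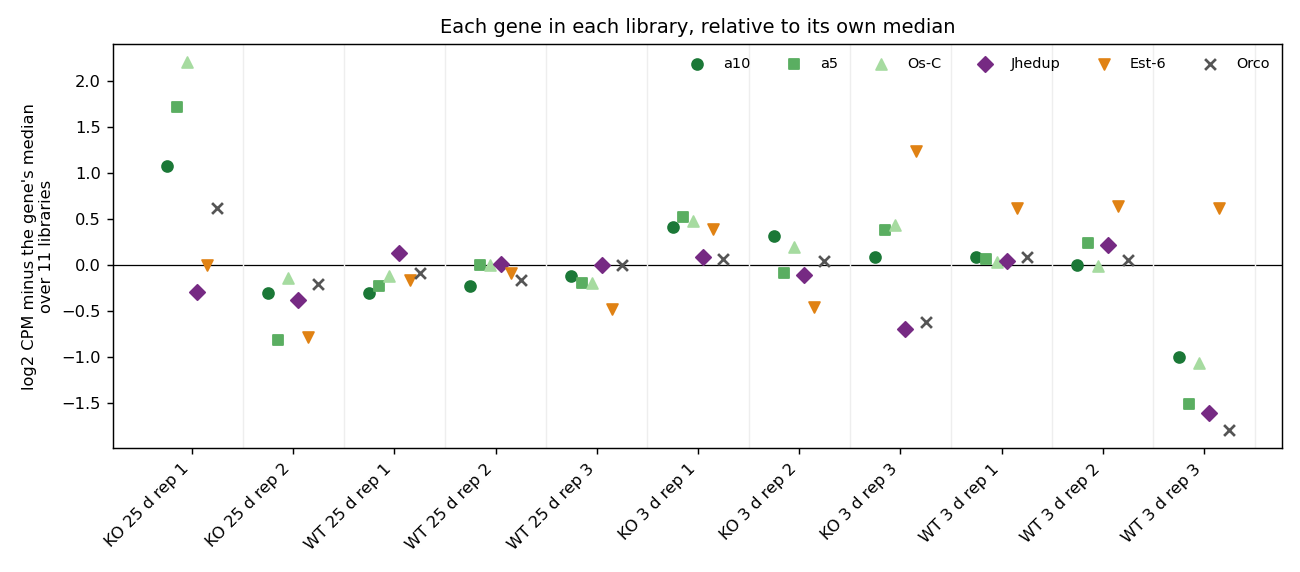
Each gene in each library as log2 CPM minus the gene's median over the 11 libraries, with the neuronal co-receptor Orco as crosses. Os-C, a5 and a10 stand at 4.62, 3.30 and 2.12 times their medians in KO 25 d replicate 1, and Jhedup and Orco at 0.328 and 0.289 times theirs in WT 3 d replicate 3.

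The genes most like each of the 5 across the 11 libraries were taken by the Pearson correlation of log2 CPM, among 8165 other genes that averaged 5 CPM or more. For Est-6 they were CG4462, CG3731 and skap (r = 0.92, 0.91 and 0.89), and for Jhedup CG17544, the odorant receptor Or42b and CG17778 (r = 0.97, 0.97 and 0.96). For a10 they were CG17168, CG1126 and CG14767 (r = 0.97, 0.97 and 0.96), and for a5 Cby, Ostgamma and CG13578 (r = 0.98, 0.97 and 0.97). For Os-C they were PHGPx, a glutathione peroxidase, with CG2064 and dnd (r = 0.99, 0.98 and 0.98). Without KO 25 d replicate 1, PHGPx was still the gene most like Os-C, and 1 of the 3 names was shared with the full list for each gene but Est-6, for which it was 0.

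The wider families were described from lists chosen with earlier results of these data known. Of 21 further carboxylesterases, 20 were found in the table and 18 passed the filter on low counts. By mean level the leading ones were CG4757 (272.5 RPKM), alpha-Est1 (164 RPKM) and alpha-Est10 (86.4 RPKM). Apart from CG9287, described below, none of these genes was called in KO against WT at either age. The median log2 fold change of the 18 was 0.17 at 25 d (0.03 without KO 25 d replicate 1) and 0.23 at 3 d, against -0.04 and -0.01 over all genes. With age 0 of the 18 were called in KO or in WT, with medians of -0.43 (-0.19 without that library) and -0.13.

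CG9287, a predicted carboxylesterase, was at 2.46 and 2.85 CPM in KO 25 d, 0 CPM in all 3 WT 25 d libraries, 9.52, 6.90 and 15.2 CPM in KO 3 d, and 0.135, 0 and 0 CPM in WT 3 d. All KO libraries lay above all WT libraries, as did those of 3.48% of all genes. CG9287 passed the filter on low counts only through KO libraries, so neither this separation nor its test is given as support. It shares 28 bases with Glt on the opposite strand.

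Among relatives of a10, the 3 further genes of the OS-D family were tested and 0 were called in either KO comparison; EbpIII averaged 3482 RPKM, and Phk-3 and CG30172 averaged 10.9 and 5.09 RPKM. EbpIII was at 11924 and 3757 CPM in KO 25 d, at 2830, 3122 and 2528 CPM in WT 25 d, at 4672, 4705 and 4165 CPM in KO 3 d and at 2091, 1891 and 2744 CPM in WT 3 d. All 5 KO libraries lay above all 6 WT libraries, as did those of 3.48% of all genes. The log2 fold change was 1.47 at 25 d (SE 0.39, adjusted p = 0.0981; 0.40 and 0.745 without KO 25 d replicate 1) and 1.01 at 3 d (SE 0.36, adjusted p = 0.291). Of the 6 further phosphatidylethanolamine-binding proteins, the relatives of a5, 0 were called in any comparison; CG17919 led at 601 RPKM, with CG6180 at 112 RPKM and CG7054 at 46.7 RPKM, and the median log2 fold change was 0.17 at 25 d (-0.22 without KO 25 d replicate 1) and -0.03 at 3 d.

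The 12 odorant binding proteins of the antennal lymph were led by Obp19d, Obp83b and Obp83a, at means of 29165, 16860 and 11905 RPKM. None of the 12 was called in any comparison. Their median log2 fold change in KO was 1.13 at 25 d and 0.54 at 3 d, and 9 and 10 of the 12 were above 0. Without KO 25 d replicate 1 the 25 d median was -0.11 and 2 of 12 were above 0. For the 5 genes described here the 25 d median was 0.76 with that library and -0.44 without it, with 3 and 0 of 5 above 0. Of 8 other support-cell genes, led by antdh (3155 RPKM), the ammonium transporter Amt (285 RPKM) and Su(H) (53.8 RPKM), 0 were called in the 5 comparisons by age and genotype, and their KO against WT medians were -0.62 at 25 d (-0.42 without that library) and -0.24 at 3 d. The 3 juvenile hormone epoxide hydrolases Jheh1, Jheh2 and Jheh3 averaged 407, 337 and 58.7 RPKM, with 0 called; their KO against WT medians were -0.31 at 25 d and -0.38 at 3 d, and without that library the 25 d median was 0.02, with 2 of 3 above 0.

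**Figure D4:**
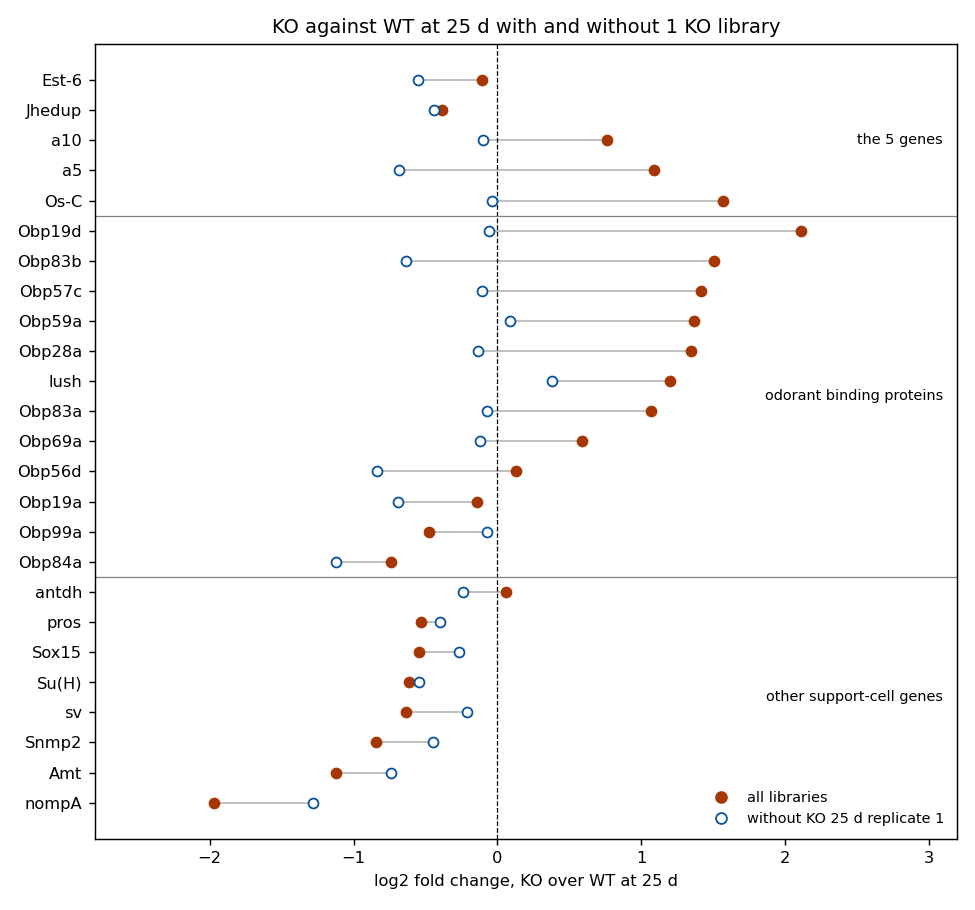
KO over WT at 25 d on the log2 scale for the 5 genes, 12 odorant binding proteins and 8 other support-cell genes, with all libraries (filled) and without KO 25 d replicate 1 (open). The median of the odorant binding proteins was 1.13 with that library and -0.11 without it, and that of the other support-cell genes -0.62 with it and -0.42 without it.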

How the data were processed

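The deposited values are unnormalized read counts for each gene, which the authors made with featureCounts 1.4.5-p1 with strand ignored, per the file headers. The submitters' processing notes name dm6, the aligner STAR 2.4.2a and FastQC. Per the labels' protocols, DNase-treated RNA was poly(A) selected and libraries were made with a directional kit. No row without a gene was present (0 rows). Each sample's column was found by its genotype, its age and its replicate number. The use of 2 of the columns for KO 25 d rests on their numbers alone, and 1 library column stayed unused. Gene coordinates are those of the table, and names of list genes were matched by symbol or older symbol. CG7529 and the marker Ebp were not matched and are not analysed here.

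Tests used edgeR 4.0.16 under R 4.3.3. The function filterByExpr kept 11867 of 16727 genes, libraries were scaled by TMM, and the robust quasi-likelihood test was fitted with the 4 group means as its terms to all 11 libraries together, with calls at a Benjamini-Hochberg adjusted p under 0.05. The common biological coefficient of variation was 0.431. A positive log2 fold change means higher in KO or at 25 d. CPM are TMM-normalized, and RPKM divide them by the exonic length in the table. Counting errors and the limit that 0 counts allow (3 counts) cover counting error only. The fitting code was also run on simulated counts. These had a smaller spread between libraries than the data and no libraries that stood apart, so that run does not measure how the test performs here.

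The genes and lists were chosen with earlier results of these data known. Named were the 5 genes, mir-284, Est-P, Jhe, the 3 genes most alike each of the 5, and of each list up to 4 called and up to 3 most abundant members; antdh, Obp19d, Obp83b and Orco in single libraries and the other genes named beyond this were chosen after their values were seen. Alternatives were RLE, upper-quartile and no scaling beyond library totals, DESeq2 1.42.0, limma 3.58.1 voom with and without library quality weights, no filter, a replicate block, fits of only the groups compared, and each library left out.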

Additional observations from a re-analysis of the deposited data

How the results depend on the processing

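Over 25 log2 fold changes (5 genes in 5 comparisons), 520 values under alternatives were computed: 459 kept the direction and the side of the threshold, 53 changed sign (1 of which also passed the threshold), 8 passed the threshold in the same direction and 0 lost a call. The number of the 5 genes called, 0 in each comparison, was 1 for KO against WT at 25 d with DESeq2 (Os-C), 1 for age in WT with voom quality weights and with only the groups compared (Est-6), and 1 for age in KO without the 3 libraries that stand apart (a10, adjusted p = 0.0254), an alternative chosen after seeing the data. With 1 library left out it ran from 0 to 3 for KO against WT at 25 d, 0 to 1 for age in KO and 0 to 1 for the difference of age changes, each highest without KO 25 d replicate 2, where the 1 library left in KO 25 d is assumed to vary like the other groups, and stayed 0 for KO against WT at 3 d and age in WT; the cause was not tested. A fit of only the groups compared could not be made for the difference. All 5 counts were also 0 with a replicate block, which moved all genes called to 145 (KO against WT at 25 d), 117 (at 3 d), 2 (age in KO), 12 (age in WT) and 2 (difference). Same-numbered KO and WT libraries of 3 d deviated together at r = 0.41, 0.03 and 0.46, and 4 of these 6 libraries correlated best with their own number. In the other comparisons r was -0.07 to 0.06. There 0 of 5 (KO against WT at 25 d), 0 of 6 (age in WT) and 2 of 5 libraries (age in KO) correlated best with their own number. Sharing by number was thus seen at 3 d for replicates 1 and 3, yet the main test did not pair by number. The block gave each number 1 effect over both ages, and a paired fit of the 3 d libraries alone was not made.

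Values that changed sign, on the log2 scale, were as follows. Left-out libraries gave ranges for KO against WT at 25 d of -0.55 to 0.23 (Est-6), -0.10 to 1.29 (a10), -0.69 to 1.86 (a5) and -0.038 to 2.31 (Os-C), and at 3 d of -0.60 to 0.25 (Est-6) and -0.34 to 0.35 (Jhedup). For age in KO they were -0.33 to 0.044 (Jhedup), -0.57 to 0.80 (a10), -1.10 to 1.42 (a5) and -0.50 to 1.83 (Os-C), and for age in WT -0.087 to 0.61 (Jhedup), -0.26 to 0.21 (a10), -0.30 to 0.37 (a5) and -0.11 to 0.34 (Os-C). For the difference they were -0.47 to 0.49 (Est-6), -0.60 to 0.79 (a10), -1.19 to 1.34 (a5) and -0.67 to 1.67 (Os-C). Without the 3 libraries that stand apart, KO against WT was -0.090 (a10), -0.68 (a5) and -0.029 (Os-C) at 25 d and -0.15 (Jhedup) at 3 d. Age in KO was then -0.66 (a10), -1.06 (a5) and -0.47 (Os-C), and age in WT -0.088 (Jhedup), -0.26 (a10), -0.30 (a5) and -0.11 (Os-C). The difference was then 0.065 (Est-6), -0.40 (a10), -0.76 (a5) and -0.36 (Os-C). Voom with quality weights gave -0.12 for Jhedup in KO against WT at 3 d, -0.017 (Jhedup), -0.24 (a10), -0.19 (a5) and -0.038 (Os-C) for age in WT, and 0.23 for Est-6 in the difference. For the difference, plain voom gave 0.074 (Est-6) and -0.11 (a5), RLE scaling and DESeq2 0.0066 (Est-6), and the replicate block 0.11 (Est-6) and -0.0088 (a10). Library totals alone gave -0.029 (a10, age in KO) and -0.14 (a10, difference), a scaling that moved the median of all genes by -0.26 in KO against WT at 25 d, -0.13 in age in KO and -0.22 in the difference.

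Counts over all genes moved most. With 1 library left out they ran from 68 to 5090 (KO against WT at 25 d, 206 with all), 64 to 592 (at 3 d, 165), 1 to 4084 (age in KO, 5), 2 to 184 (age in WT, 18) and 0 to 2987 (difference, 3), each highest without KO 25 d replicate 2, and under the other alternatives from 16 to 1078, 117 to 2376, 0 to 282, 7 to 1958 and 2 to 87. The list values without KO 25 d replicate 1 and the averaged comparisons were also chosen after seeing the data. By Spearman's rho, 1 of the 3 genes most alike Est-6 was the same, and 0 for the other 4 genes. Depth did not limit the values of the 5 genes, whose counting error was at most 0.604%.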

Other observations

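In the KO against WT comparison averaged over both ages, with adjusted p from edgeR's quasi-likelihood test, Os-C was at 1.11 on the log2 scale (SE 0.37, 95% interval 0.29 to 1.92, adjusted p = 0.111) and a10 at 0.63 (SE 0.28, adjusted p = 0.205). That comparison called 5.32% of all genes. Of 18 carboxylesterases it called 2 higher, CG9287 among them, and 1 lower. It called 1 of 3 further OS-D genes higher, 1 of 8 other support-cell genes lower and 0 of 12 odorant binding proteins. The genes below were picked because they were called. EbpIII, the abundant relative of a10, was higher in KO, at 3757 to 11924 CPM in 5 KO libraries and 1891 to 3122 CPM in 6 WT libraries (log2 1.24, SE 0.27, adjusted p = 0.0241). Leaving out single libraries kept its value between 0.70 and 1.54 but its call in 4 of 11 cases. Without the 3 libraries that stand apart, which leaves 1 library in KO 25 d, the EbpIII value was 0.82. The same fit gave 2.29 for CG4757, -0.63 for alpha-Est10, -0.40 for pros and 0.54 for Sfp84E, all described below. Markers called in the same averaged comparison were NimC1 of hemocytes (log2 3.67) and Or42a of the maxillary palp (2.68, adjusted p = 0.0458, and 0.0961 without KO 25 d replicate 1), both higher in KO, and Act88F of muscle (-2.85) and roX2 (-1.26), both lower; their part was not tested.

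The carboxylesterase CG4757 was higher in KO, at 642 to 1610 CPM in KO libraries and 117 to 724 CPM in WT libraries, which overlapped (log2 2.02, SE 0.44, adjusted p = 0.0260). Its call held in 3 of 11 cases with 1 library left out, with values of 1.75 to 2.67. The carboxylesterase alpha-Est10 was lower in KO, at 119 to 173 CPM in KO libraries and 182 to 274 CPM in WT libraries with no overlap, as for 3.34% of all genes in that direction (log2 -0.64, SE 0.14, adjusted p = 0.0243), and its call also held in 3 of 11 cases. The transcription factor gene pros was lower in KO (log2 -0.55, SE 0.13, adjusted p = 0.0402) with no overlap, and its call held in 1 of 11 cases.

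Sfp84E, which shares 27 bases with Os-C on the opposite strand, was at 3494 and 400 CPM in KO 25 d, 358, 389 and 157 CPM in WT 25 d, 645, 515 and 1001 CPM in KO 3 d and 332, 393 and 377 CPM in WT 3 d. All KO libraries lay above all WT libraries, as for 3.48% of all genes. Its RPKM was 0.031 to 0.136 times that of Os-C in the same library. Its averaged log2 fold change was 1.83 (SE 0.46, adjusted p = 0.0487), and 0.68 without KO 25 d replicate 1 (adjusted p = 0.262); how far reads of the shared bases contribute was not tested.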
